A study of Mus musculus with 42 samples.

Results

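In 6 *Ccdc40* mutant embryos the right heart field was compared with the left one of the same embryo. These embryos had a rightward looped heart tube and were placed in heterotaxy by the study's tree, which sorted 21 embryos by their right minus left expression of selected genes. They gave 12 of the 42 libraries of the series. The embryos 15_5, 18_1, 23_3 and 32_3 were male and the embryos 3_7 and 19_4 were female. All 6 were homozygous for *lnks*, an ENU-induced nonsense allele (Ccdc40lnks/lnks). The values side by side with theirs come from 5 wild types (Ccdc40+/+), 5 other Ccdc40lnks/lnks mutants with rightward looping and 5 Ccdc40lnks/lnks mutants with inverted looping, all dissected at the same stage, E8.5i. The tissue was the heart field, which holds the precursors that are added to the heart tube, freed from the heart tube, head, back and posterior trunk and cut at the midline. A side dissected in this way is a mixture of cells, and fewer cells of a type cannot be told apart from less RNA per cell.

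*Ccdc40* encodes a coiled-coil protein without which motile cilia do not beat properly. In the embryo, cilia of the node drive a leftward flow, after which the TGFβ ligand NODAL is expressed in the left lateral plate mesoderm. NODAL acts through activin receptors, SMAD2/3 and the factor FOXH1, and its left-sided targets include its own antagonists *Lefty1* and *Lefty2*. Situs solitus is the usual arrangement of organs and situs inversus totalis its mirror image, whereas in heterotaxy the sides of different organs or heart segments do not match.

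FOXH1 binds the motif AATNCACA, and asymmetric enhancers of *Nodal* targets are known to hold copies of it close together. *Lefty2*, which had the largest left-sided log2 fold change of the genes called by DESeq2, is shown here with a stretch that holds such a group, together with a group in *Vgll3*, which was higher on the right. Matches to the motif on either strand are in capitals, and each stretch is read 5′ to 3′ on the strand of the gene from GRCm39. The stretch of *Lefty2* lies before the gene at chr1:180716354-180716653 and holds 2 matches, at -4177 and -4094 bases from the start of the canonical transcript. The stretch of *Vgll3* lies in an intron at chr16:65627215-65627514 and holds 2 matches.
Lefty2: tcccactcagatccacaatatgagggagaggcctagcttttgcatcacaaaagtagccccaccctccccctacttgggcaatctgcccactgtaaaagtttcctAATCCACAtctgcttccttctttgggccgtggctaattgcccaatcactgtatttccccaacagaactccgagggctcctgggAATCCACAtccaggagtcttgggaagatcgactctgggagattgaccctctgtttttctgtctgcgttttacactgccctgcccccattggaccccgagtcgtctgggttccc
Vgll3: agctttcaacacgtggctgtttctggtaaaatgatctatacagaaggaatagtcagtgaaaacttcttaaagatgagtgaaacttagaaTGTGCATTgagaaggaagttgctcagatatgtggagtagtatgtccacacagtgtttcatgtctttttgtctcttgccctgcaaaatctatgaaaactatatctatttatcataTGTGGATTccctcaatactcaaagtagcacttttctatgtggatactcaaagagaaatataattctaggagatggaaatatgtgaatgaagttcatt
Over 21757 protein-coding genes, 32.9% had a pair of matches within 250 bases between 10 kb before and 20 kb after the start. In the same range *Lefty2* had 2 pairs, the other one after the gene at chr1:180728369-180728668, *Vgll3* and *Hand1* had 1 pair each, and *Osr1* and *Wt1* had none. A match of letters does not show that a factor binds there.

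The libraries of the 6 embryos held 37517697 to 49787293 counts, with a median of 43934407, and the right library was the larger in 2 of 6 embryos. No library was a copy of another. *Ccdc40* itself was at 8.83 to 14.1 CPM (counts scaled to a common library size) in these libraries, at 9.83 to 14.9 in the other mutants and at 15.1 to 26.8 in wild types. All 14 markers of the anterior second heart field and all 21 of the venous pole and the cardiopulmonary progenitors, which are the heart precursors of the posterior heart field, had counts in every library.

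The embryos were chosen by right minus left values, so the genes behind the choice are described here without p-values, although they stayed in the fits over all genes. The study's procedure was rebuilt from its methods, and it gave 30 genes with one side in all 5 wild types, 23 on the left and 7 on the right. The list may differ from the study's own, as its filter on heart muscle lineages was not used here. In the 6 heterotaxy mutants, 16 to 25 of the 30 genes had the side that they had in wild types. In the other mutants with rightward looping 22 to 29 genes did so, and in the mutants with inverted looping 1 to 10. The ranges of the heterotaxy mutants and the other rightward mutants thus met between 22 and 25 genes. The embryo 23_3 had 25 genes on the side seen in wild types, 15_5 had 23, 3_7 had 21, 18_1 had 20, and 19_4 and 32_3 had 16 each.

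**Figure D1:**
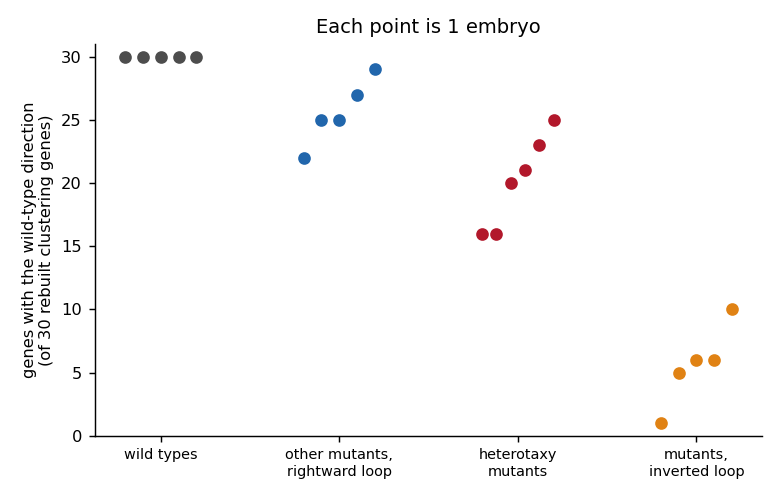
Number of the 30 rebuilt clustering genes whose right minus left value had the direction seen in wild types (y axis), with 1 point per embryo, in 5 wild types, 5 other mutants with rightward looping, 6 heterotaxy mutants and 5 mutants with inverted looping. The heterotaxy mutants lie between 16 and 25, with 30 for every wild type by construction and 1 to 10 in mutants with inverted looping.

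Of these 30 genes, 5 were higher on the left and 2 higher on the right in all 6 heterotaxy mutants. *Gm43697*, an unclassified transcript, was left-sided in 6 of 6 embryos, but at low levels of 0.29 to 0.85 CPM on the left and 0 to 0.38 CPM on the right. The long non-coding RNA *D030025E07Rik* had 5.30 to 10.2 CPM on the left and 8.28 to 12.1 CPM on the right, a log2 fold change of 0.65 with the right side higher in 6 of 6 embryos. In wild types its log2 fold change was 0.96. *Dcaf12l1*, a gene of the X chromosome related to adaptors of ubiquitin ligases, had a log2 fold change of -0.92. The non-coding *Gm35533* had -0.92 and *Pla2r1*, a receptor of secreted phospholipase A2, had -0.16. *Igfbpl1*, which encodes a protein related to IGF-binding proteins, was the other gene with a higher right side in 6 of 6 embryos, at 0.45.

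The other genes of the rebuilt list had mixed sides. Of the 30 genes, 22 had the sign of wild types in the log2 fold change and 8 had the opposite sign. *Pitx1*, a homeobox gene, was left-sided in 5 of 5 wild types (-1.06), while in the heterotaxy mutants it was at 0.51 with 4 of 6 embryos higher on the right. *Postn*, which encodes the matrix protein periostin, was at -1.24 in wild types and at 0.07 in the heterotaxy mutants, where its ratios ran from -0.69 to 1.29. *Ccn4*, a secreted target of WNT signalling, was at -0.92 in wild types and at -0.04 in the heterotaxy mutants, with 3 embryos on each side. *Nkx2-1*, a factor of the lung and thyroid endoderm, was higher on the right in 5 of 6 embryos and higher on the left in 3_7, at 0 to 2.37 CPM on the left and 0 to 2.49 CPM on the right.

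Across all genes, few differences between right and left were shared by the 6 embryos. Of 22941 genes tested by edgeR's quasi-likelihood test with the embryo as a block, 1 gene (0.00436%) passed an adjusted p of 0.05, and the choice of embryos had used this gene. An unadjusted p under 0.05 was reached by 1363 genes (5.94%), 599 higher on the left (2.61%) and 764 higher on the right (3.33%). DESeq2 called 88 of 18493 genes (0.476%), 33 higher on the left (0.178%) and 55 higher on the right (0.297%), and 65 of the 88 had one direction in all 6 embryos. Of the 88 genes, 7 were of the rebuilt list that stands for the choice of embryos, and nothing is read from these 7 calls. Counted over all genes, 926 (4.04%) had one direction in 6 of 6 embryos, 506 higher on the left (2.21%) and 420 higher on the right (1.83%). The p-values of the genes below are not independent of the choice of the embryos, since the embryos were chosen by right minus left values in the same libraries.

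The embryo 15_5 decided part of this count. Without it edgeR called 77 of 22960 genes tested, 6 higher on the left and 71 higher on the right. Of these 71 genes, 70 had a ratio below 0 in 15_5. This follows largely from how they were picked, since genes in which 15_5 had the other side pass more easily without it. *Fzd7* of the rebuilt list was among the 71, and nothing is read from its call. The 71 genes had log2 fold changes of 0.20 to 1.41 with a median of 0.54 over the other 5 embryos, and 70 of them had a log2 fold change below 0 in wild types, where the mean ratio was below 0 for 49.8% of all genes tested. Since the tree compared the right minus left values of these embryos with those of wild types, opposite signs between the groups can follow in part from the choice. *Fgfr1* and *Fgfr2*, receptors of fibroblast growth factors, *Smo*, the transducer of Hedgehog signals, and *Ror2*, a WNT receptor, were among the 71 genes. Without 23_3 or without 3_7 edgeR called 0 genes, with 1211 and 1630 genes at an unadjusted p under 0.05. DESeq2 was not run on these subsets.

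In the Nodal pathway, 21 of 24 genes were tested. Of these 21, 3 were higher on the left in all 6 embryos, *Lefty2* and *Acvr1c* among them, and 0 were higher on the right. Over all genes tested the shares were 2.21% and 1.83%. The list holds 1 gene of the rebuilt list. *Lefty2* had 15.5 CPM on the left of 15_5, 6.78 in 19_4, 4.10 in 3_7, 3.71 in 23_3, 1.78 in 18_1 and 1.47 in 32_3. On the right of the same embryos it had 0.38, 3.10, 1.13, 0.74, 0.65 and 0.32 CPM. The left side was thus higher in each embryo, though the ranges of the sides overlapped, and 15_5 had the largest difference. Its log2 fold change was -2.27 with a standard error of 0.47, at an adjusted p of 0.013 by DESeq2 and of 0.77 by edgeR. Without 15_5 the log2 fold change was -1.74 and the adjusted p by edgeR 0.0475. Over 16 alternatives its adjusted p ran from 0.013 with DESeq2 to 0.9999 without the embryo block and with all 42 libraries in the fit, and those of *Osr1*, *Wt1* and *Vgll3* below had the same upper limit.

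The ligand *Nodal* was below the filter on low counts, at 3 to 9 counts in the left libraries and 0 to 4 in the right ones. Its log2 ratio, with a prior count of 2, was below 0 in 6 of 6 embryos, from -1.82 to -0.25. *Lefty1* was also low, at 0.02 to 0.41 CPM, and was higher on the right in 3 of 6 embryos. *Acvr1c*, which encodes the receptor ALK7, was higher on the left in 6 of 6 embryos. Its log2 fold change was -0.96, at 0.11 to 1.03 CPM and an adjusted p of 0.80 by edgeR and 0.29 by DESeq2. The median of the pathway was a log2 fold change of 0.02, beside -0.01 over all genes tested. The summed level of the list was 634 to 728 CPM on the left and 584 to 661 CPM on the right, and was higher on the left in 5 of 6 embryos. This sum includes the 1 gene of the rebuilt list, so its side is not independent of the choice of embryos. The summed level of its 5 extracellular inhibitors, which include *Lefty2*, was higher on the left in 6 of 6 embryos. It was 6.92 to 22.1 CPM on the left and 5.67 to 9.70 CPM on the right. The median ratio of these 5 genes was above 0 in 19_4 (0.16) and 32_3 (0.04) and below 0 in the other embryos.

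**Figure D2:**
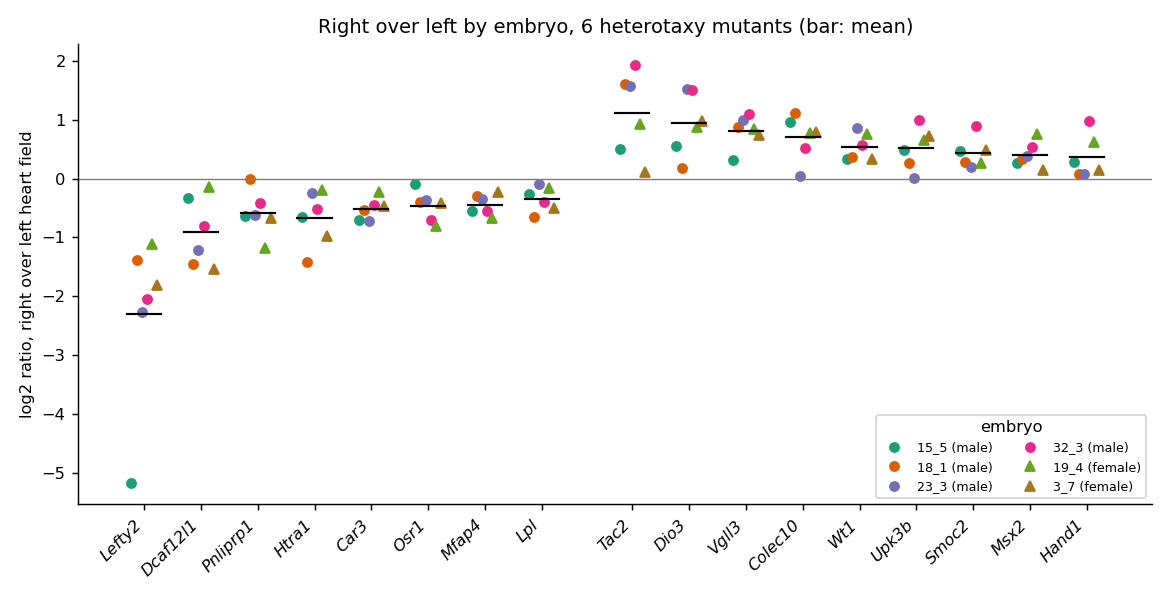
Log2 ratio of right over left (y axis) of 17 genes in the 6 heterotaxy mutants, with 1 coloured point per embryo (circles male, triangles female) and a bar at the mean. *Lefty2* of embryo 15_5, at -5.18, lies far below the other 5 embryos, and all points of the left block are below 0 and all points of the right block above 0.

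Outside the rebuilt list, 49 genes had one direction in all 6 embryos, a mean of at least 200 counts on either side and an adjusted p under 0.05 by DESeq2. Of these, 15 were higher on the left and 34 higher on the right, and by edgeR none of them passed the adjusted threshold. Since one direction in 6 embryos was part of how they were picked, the exact sign-flip test over embryos gave each the smallest p it allows, 0.0312.

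On the left, the named genes beside *Lefty2* included a factor of the posterior heart field, matrix proteins and enzymes. *Osr1* encodes a zinc finger factor of the posterior second heart field. It had 39.3 to 82.3 CPM on the left with a median of 61.9, and 35.2 to 61.8 CPM on the right with a median of 41.9. The ranges overlapped, but the left side was the higher in 6 of 6 embryos. The log2 fold change was -0.46 with a standard error of 0.09 and an adjusted p of 7.49e-06 by DESeq2 (0.65 by edgeR). *Mfap4*, a protein of microfibrils, had a log2 fold change of -0.44 and ratios of -0.67 to -0.23. *Col9a1*, a chain of collagen IX, had -0.37, and *Cercam*, a protein of cell adhesion, had -0.39.

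*Lpl*, which encodes lipoprotein lipase, was at 21.5 to 43.5 CPM on the left and 17.5 to 30.7 CPM on the right, a log2 fold change of -0.35. *Htra1*, a secreted serine protease, had a log2 fold change of -0.68 and ratios from -1.42 to -0.20. *Pnliprp1*, related to pancreatic lipase, had -0.60, with a ratio of -0.01 in 18_1, and *Car3*, a carbonic anhydrase, had -0.52. *Spata13*, an exchange factor of small GTPases, had -0.23, and *Kdr*, a VEGF receptor of endothelium and its precursors, had -0.21. The other 4 genes of the left set lay between -0.19 and -0.15. The differences of the left set were thus small beside that of *Lefty2*, and every other gene of the set was below 2-fold.

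On the right, *Wt1* and *Upk3b*, genes of the mesothelium that also mark the proepicardium, were among the named genes. *Wt1* had 54.0 CPM on the left of 15_5, 14.0 in 3_7, 11.1 in 23_3, 8.52 in 18_1, 7.74 in 32_3 and 5.81 in 19_4. On the right of these embryos it had 67.6, 17.7, 20.2, 10.97, 11.5 and 9.79 CPM. The right side was higher in each embryo although the embryos differed widely in level, and the log2 fold change was 0.53 with a standard error of 0.09 and an adjusted p of 7.49e-06 by DESeq2 (0.60 by edgeR). *Upk3b* had a log2 fold change of 0.53, but in 23_3 its ratio was 0.0045, next to equal sides.

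*Vgll3*, a cofactor of TEAD factors, had 37.9 CPM on the left and 47.2 on the right of 15_5, while the other 5 embryos had 2.14 to 5.88 CPM on the left and 3.86 to 10.5 on the right. The right side was higher in 6 of 6 embryos, at ratios of 0.32 to 1.10. The log2 fold change was 0.80 with a standard error of 0.11 and an adjusted p of 2.09e-07 by DESeq2 (0.34 by edgeR). *Dio3*, the deiodinase that inactivates thyroid hormone, had ratios of 0.18 to 1.52 and a log2 fold change of 0.92. *Tac2*, the precursor of neurokinin B, had ratios of 0.12 to 1.93 and a log2 fold change of 1.06.

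*Msx2*, a homeobox target of BMP signalling, had 26.5 to 47.9 CPM on the left and 37.4 to 52.8 CPM on the right, a log2 fold change of 0.40. Its ratio was lowest in 3_7 (0.14) and highest in 19_4 (0.75), the embryos with the lowest (-0.21) and the highest (1.01) median ratio of the 7 genes of the atrioventricular canal, a list that holds *Msx2*. The part of this list in the values of *Msx2* was not tested. *Smoc2*, a secreted matricellular protein, had 0.43, *Colec10*, a secreted collectin, had 0.70, and *Usp18*, a protease that removes ISG15, had 0.63. *Tent5c*, a poly(A) polymerase, had 0.43 and *Nabp1*, a protein that binds single-stranded DNA, had 0.40. *Fbn1*, which encodes fibrillin 1, had 0.22. The other 22 genes of the right set had log2 fold changes of 0.17 to 0.38 and included *Igf2*, a fetal growth factor, at 0.30. *Igf2* was named after its values were seen.

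The level of several genes on both sides set 15_5 apart. The mean of both sides of this embryo was 60.8 CPM in *Wt1*, beside 7.80 to 15.8 CPM in the other 5 embryos. It was 42.6 against 3.00 to 7.88 CPM in *Vgll3*, 36.6 against 1.11 to 3.84 CPM in *Tac2*, 20.5 against 1.64 to 3.63 CPM in *Dio3* and 14.8 against 1.67 to 2.18 CPM in *Usp18*. *Wt1*, *Vgll3*, *Tac2*, *Dio3* and *Usp18* were thus several-fold higher in 15_5 than in any other embryo of the cluster. Some genes outside the right set were also higher in 15_5, as *Hspb8* had 60.7 CPM against 7.27 to 12.2, *Lmna*, which encodes lamin A/C, 68.8 against 13.9 to 19.6 and *Dcn*, the proteoglycan decorin, 26.3 against 5.94 to 11.8 CPM. Without this embryo the log2 fold change was 0.59 in *Wt1*, 0.93 in *Vgll3*, 1.24 in *Tac2*, 1.03 in *Dio3* and 0.66 in *Usp18*, each as large as with it or larger.

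The wild types, the other rightward mutants and the inverted mutants share no library with the heterotaxy mutants, and their values of the same genes are given side by side without a test of the difference. The groups are not independent of the choice, since the same tree on right minus left values parted the heterotaxy mutants from the other rightward mutants, and opposite signs between these groups can follow from it in part. *Osr1* had a log2 fold change of -0.38 in wild types, -0.44 in the other rightward mutants and 0.60 in mutants with inverted looping. *Lpl* had -0.47, -0.50 and 0.64 in the same order, and *Lefty2* had -1.54, -1.94 and 3.99. *Lefty2*, *Osr1* and *Lpl* thus had the sign of the wild-type log2 fold change in the heterotaxy mutants and the other sign in the inverted mutants. For *Osr1* the wild types were spread, with ratios from -1.13 to 0.74 and 4 of 5 embryos higher on the left. The other rightward mutants ran from -1.10 to 0.64, also with 4 of 5 higher on the left, so its side in these groups is uncertain.

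The right-sided genes were arranged in another way. *Vgll3* was at -1.53 in wild types, left-sided in 5 of 5, at -0.95 in the other rightward mutants and at 1.01 in the inverted mutants. *Dio3* had -0.65, -1.23 and 0.96 in the same order, *Tac2* had -0.61, -0.86 and 0.76, and *Wt1* had -0.37, -0.33 and 0.29. *Vgll3*, *Dio3*, *Tac2* and *Wt1* thus had the sign of the inverted mutants in embryos whose *Lefty2* had the sign of wild types. The embryos of a group were spread. The ratio of *Wt1* ran from -1.87 to 0.57 in wild types and from -1.58 to 0.84 in the other rightward mutants. In the inverted mutants it ran from -0.19 to 0.74, with 3 of 5 embryos higher on the right. *Vgll3*, *Dio3* and *Tac2* were higher on the right in 4 of 5 inverted mutants.

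**Figure D3:**
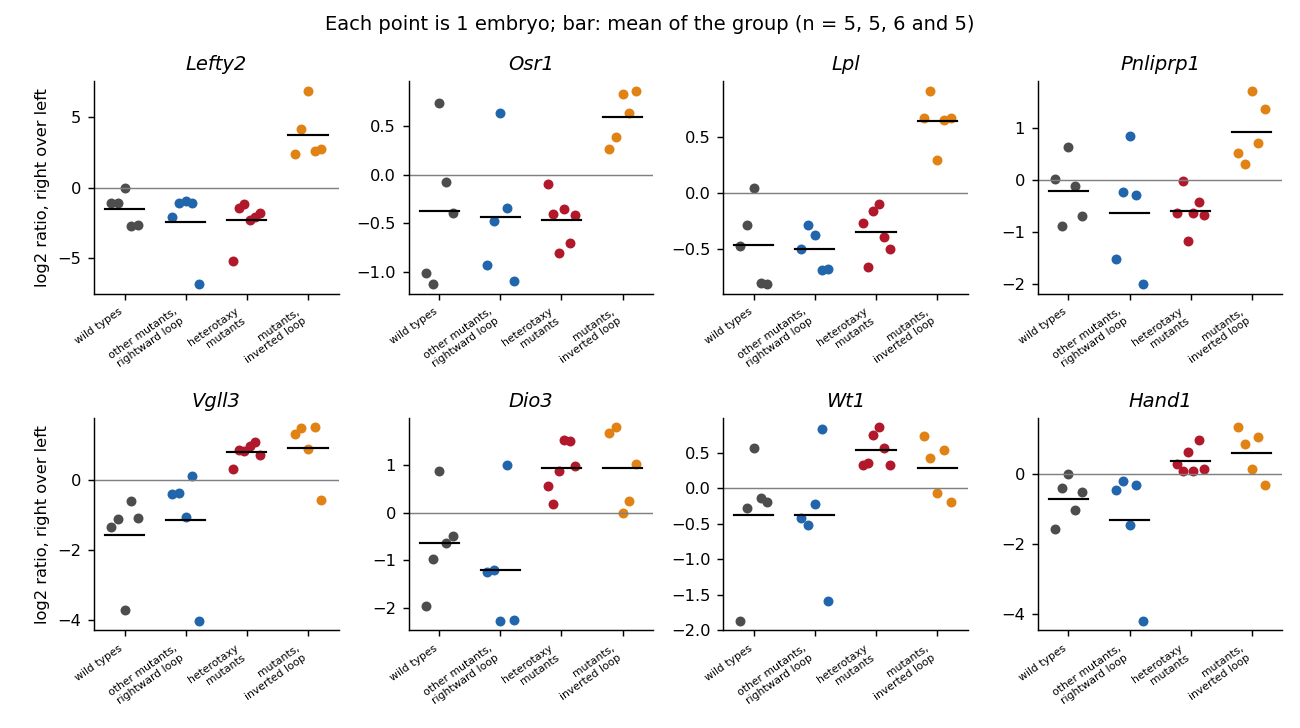
Log2 ratio of right over left (y axis, 1 panel per gene with its own scale) in wild types (n = 5), other mutants with rightward looping (n = 5), heterotaxy mutants (n = 6) and mutants with inverted looping (n = 5), with 1 point per embryo and a bar at the mean. In the upper row the heterotaxy mutants lie below 0 and the inverted mutants above 0, and in the lower row all 6 heterotaxy mutants lie above 0 while most wild types lie below.

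Over the whole set of 34 right-sided genes, the mean ratio was below 0 for 26 genes in wild types, for 30 in the other rightward mutants and for 9 in the inverted mutants. Over all genes tested, the mean ratio was below 0 for 49.8%, 51.3% and 51.1% in these groups. The median log2 fold change of the 34 genes was -0.15 in wild types, -0.23 in the other rightward mutants and 0.16 in the inverted mutants, beside 0.31 in the heterotaxy mutants that had chosen them. Of the 15 left-sided genes, 12 had a mean ratio below 0 in wild types, 10 in the other rightward mutants and 5 in the inverted mutants. Of the 34 right-sided genes, 2 were higher on the left in 5 of 5 wild types (2.58% of all genes tested were) and 4 in 5 of 5 other rightward mutants (4.13%), while 3 were higher on the right in 5 of 5 inverted mutants (8.59%). Of the 15 left-sided genes, 2 were higher on the left in 5 of 5 wild types and 2 in 5 of 5 other rightward mutants. In the inverted mutants 5 of the 15 were higher on the right in 5 of 5 embryos and 1 was higher on the left (6.96% of all genes tested were).

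**Figure D4:**
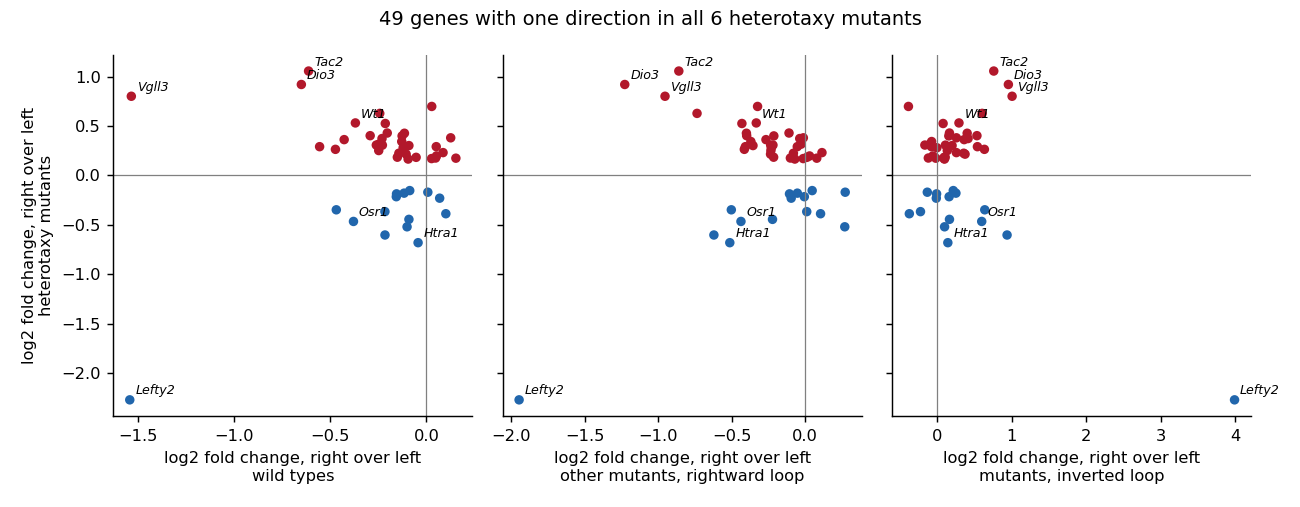
Log2 fold change of right over left in the heterotaxy mutants (y axis) and in 3 other groups (x axes) for the 49 genes with one direction in all 6 heterotaxy mutants. Most of the 34 genes above 0 on the y axis lie to the left of 0 in wild types (26 by the mean ratio) and in other rightward mutants (30), and fewer do in inverted mutants (9).

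*Hand1*, a bHLH factor of the heart tube and the extraembryonic mesoderm, was higher on the right in 6 of 6 heterotaxy mutants. It had 45.8 to 103 CPM on the left and 75.4 to 124 CPM on the right, with ratios from 0.07 to 0.98. Its log2 fold change was 0.36, at an adjusted p of 0.80 by edgeR and 0.40 by DESeq2, so that the difference did not pass either test. In wild types *Hand1* had -0.70 and in the other rightward mutants -1.09, with a higher left side in 5 of 5 embryos of both groups.

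The counts of the other signalling pathways stand beside 4.04% of all genes tested with one direction in 6 of 6 embryos. Their calls by DESeq2 stand beside the 0.476% of all genes that it called. Of 65 tested WNT genes, 1 was higher on the left and 2 on the right in all 6 embryos, and the median log2 fold change was 0.02. By edgeR 3 of the 65 had an unadjusted p under 0.05 with a higher left side and 9 with a higher right side. Over all genes tested these shares were 2.61% and 3.33%. The WNT list holds 3 genes of the rebuilt list that stands for the choice of embryos. These genes were not left out of the counts, so nothing is read from the excess on the right. The ligand *Wnt9a* had 0.36, the coreceptor *Lrp5* had 0.20 and the target *Ccnd1*, which encodes cyclin D1, had -0.22, and none of these passed edgeR or DESeq2. *Wnt6*, a WNT ligand of surface ectoderm, was the 1 WNT gene called by DESeq2 (log2 fold change 0.41, adjusted p 0.041) and was named after its values were seen. *Wnt11*, a ligand of noncanonical signalling, had -0.45 with 5 of 6 embryos higher on the left and a ratio of 1.07 in 19_4. Its log2 fold change was -0.73 without 19_4 and -0.25 without 15_5. *Sfrp2*, a secreted WNT antagonist, had -0.40 and *Wnt2*, a ligand of the cardiopulmonary progenitors, had 0.10. *Wnt11*, *Sfrp2* and *Wnt2* passed neither edgeR nor DESeq2.

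Of 28 BMP genes, *Msx2* was the 1 gene with one direction and the 1 gene called by DESeq2, beside 4.04% and 0.476% over all genes. The ligand *Bmp2* had 29.4 to 53.4 CPM on the left and 30.3 to 69.3 CPM on the right, with 3 embryos on each side. Of 12 Hedgehog genes, 0 had one direction and DESeq2 called 1, beside 0.476% over all genes. By edgeR 2 of the 12 had an unadjusted p under 0.05 with a higher left side and 4 with a higher right side. Over all genes tested these shares were 2.61% and 3.33%. Of 20 genes of FGF signalling, 0 had one direction, and *Fgfr1* was called by DESeq2 with 0.28, higher on the right in 5 of 6 embryos (adjusted p 0.0051, 0.80 by edgeR). *Fgfr1* was named after its values were seen.

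Of 15 genes of retinoic acid, *Aldh1a1*, a retinaldehyde dehydrogenase, was higher on the right in 6 of 6 embryos, but at 0 to 0.34 CPM on the left and 0.16 to 0.41 on the right. Of 18 Notch genes, the receptor *Notch4* was higher on the right in 6 of 6 embryos, at 0.34 and with a ratio of only 0.0003 in 23_3. Neither *Aldh1a1* nor *Notch4* passed edgeR's test (adjusted p 0.80 for both).

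The counts of the following lists, too, stand beside the 4.04% of all genes tested with one direction, and nothing is read from a share near it. Calls by DESeq2 stand beside the 0.476% of all genes that it called. Among the lists of cell types, the venous pole and the cardiopulmonary progenitors had *Osr1* on the left and *Wt1* on the right in 6 of 6 embryos, and the other 19 genes on mixed sides. *Shox2*, a factor of the sinus node in this list, had a log2 fold change of 0.16 with 4 of 6 embryos higher on the right. Of 14 genes of the anterior second heart field, 0 had one direction. The list of endothelium had 12 genes, of which *Kdr* had one direction. DESeq2 also called *Etv2*, a factor of early endothelium (log2 fold change -0.33, adjusted p 0.021), named after its values were seen. *Flt1*, another VEGF receptor, was of the right set at 0.18 (adjusted p 0.033 by DESeq2). It, too, was named after its values were seen. Of 15 genes of cell division, 2 were higher on the left in 6 of 6 embryos, *Ccnb1* at -0.07 and *Top2a* at -0.06, and neither passed edgeR or DESeq2. Of 26 genes of the extracellular matrix, with a median log2 fold change of -0.01, *Fbn1* at 0.22 and *Lamc1*, a laminin chain, at 0.15 were higher on the right in 6 of 6 embryos and 0 were higher on the left in all 6. *Lamc1* passed neither edgeR nor DESeq2. *Col3a1*, a chain of collagen III and one of the rebuilt list, had -0.19 and was higher on the left in 5 of 6 embryos. Of 23 tested Hox genes, *Hoxc8* was higher on the right in 6 of 6 embryos, at 0.07 to 0.37 CPM on the left and 0.10 to 0.83 CPM on the right.

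A list of 8 genes that the study followed for laterality had no common side in the 6 embryos. The study picked them for differing between clusters of these same embryos, heterotaxy included, and 3 of the 8 were among the genes used here to rebuild the clusters, so a mixed side is in part built into the list. None of the 8 had one direction, and their median log2 fold change was 0.28. *Retreg1*, an ER membrane protein, had 0.60, with ratios from -0.60 to 2.14, and *Misp3* had 0.69, with ratios from -0.69 to 2.26. *Hspb8*, a small heat shock protein, had 0.26 and *Trabd2b*, a WNT-cleaving protease, had 0.02. *Ptgfr*, the receptor of prostaglandin F, was the nearest to one side, higher on the right in 5 of 6 embryos at 0.30, beside 0.34 in wild types, 0.97 in the other rightward mutants and -0.85 in the inverted mutants. *Gal*, the neuropeptide galanin, had -0.18 with ratios from -1.66 to 1.91, and *Ism1*, a secreted protein, had -0.11.

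The embryos resembled each other little beyond these genes. Over 11553 genes with a mean of at least 200 counts on either side, the correlation of log2 ratios between pairs of embryos had a median of 0.04 and ran from -0.24 (15_5 with 18_1) to 0.34 (3_7 with 32_3), with 6 of 15 pairs below 0. These correlations are across genes, which are not independent replicates, and describe these libraries. The standard deviation of the log2 ratios was 0.20 in 23_3, 0.22 in 18_1, 0.29 in 15_5, 0.31 in 32_3, 0.32 in 3_7 and 0.41 in 19_4. In 18_1, 63 genes differed by more than 2-fold between the sides, and in 19_4, 308 genes did.

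The lists that mark cell types varied by embryo and had no common side. None of 26 lists had a median ratio, or a summed level, on one side in all 6 embryos. The 25 genes of heart muscle had a median ratio of 1.44 in 19_4 and of -0.54 in 3_7, and their summed level was 2777 to 8683 CPM on the left and 3641 to 6712 CPM on the right. The 12 genes of visceral endoderm, which adjoins the dissected field, had a median ratio of 3.35 in 32_3, 1.95 in 3_7 and -1.14 in 23_3, at summed levels of 194 to 1150 CPM on the left and 434 to 1360 CPM on the right. The tested genes of the neural tube had -1.69 in 15_5 and -1.33 in 19_4, and those of paraxial mesoderm -1.02 in 15_5. No marker of heart muscle, visceral endoderm, blood or endothelium was at 0 in any library, whereas *Sox1*, *Olig2*, *Zic1* and *Neurog2* of the neural tube and *Tbx22* of paraxial mesoderm were at 0 in at least 1 library. The part of these cell types in the values of single genes was not tested.

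**Figure D5:**
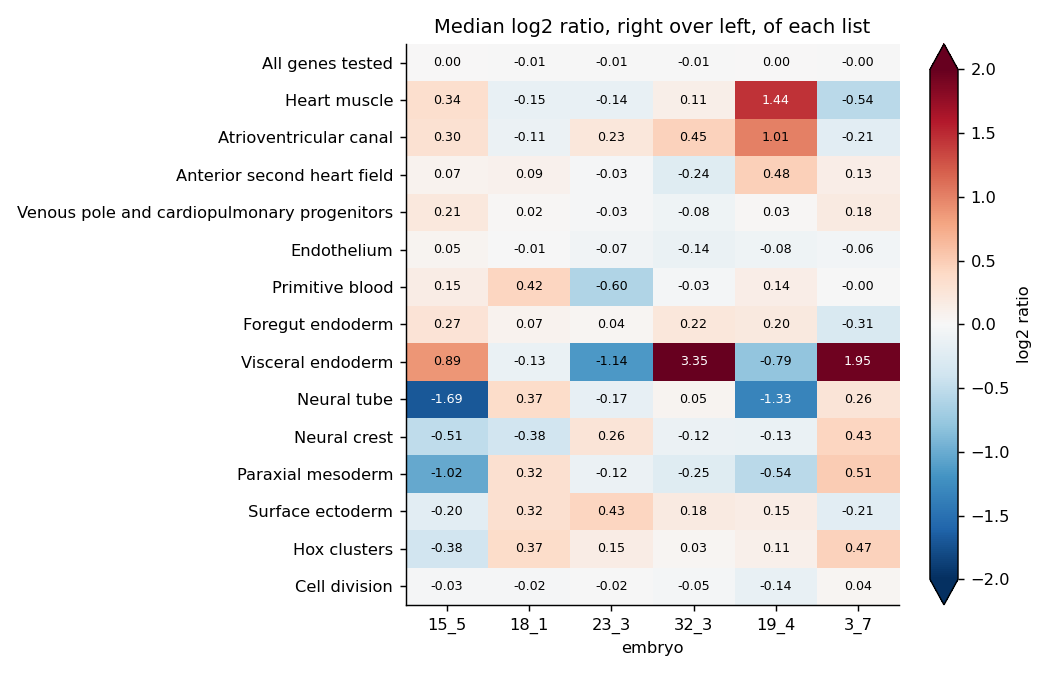
Median log2 ratio of right over left for 14 gene lists and for all genes tested (rows) in each of the 6 embryos (columns), with the value printed in each cell, red for higher on the right and blue for higher on the left, and with the deepest colour for any value beyond 2 in size. Visceral endoderm (-1.14 to 3.35), neural tube (-1.69 to 0.37) and heart muscle (-0.54 to 1.44) have the widest ranges, and cell division and endothelium stay near 0.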

How the data were processed

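RNA of each side of the heart field was amplified as poly(A) cDNA from 10 ng, sequenced, trimmed, aligned to GRCm39 with STAR and counted with featureCounts (Subread 2.0.6 per the labels), with duplicates removed. The authors deposited raw counts per gene for 56953 genes, without normalization. The strand setting is not given in the sources used here, so counts of overlapping genes are uncertain. Names came from GENCODE vM39. Samples were mapped by the labels, and the 6 embryos by the study's tree. Replicates are embryos.

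Counts were tested with edgeR 4.0.16 (glmQLFit, TMM, filterByExpr by side, with settings of 5 for min.count, 10 for min.total.count, 50 for large.n and 0.2 for min.prop) in R 4.3.3, with the embryo as a block, and p-values were adjusted by Benjamini-Hochberg over all genes tested. DESeq2 1.42.0 with a local fit was an alternative, beside those of the closing section. Ratios are of CPM by effective library size with a prior count of 2. CPM is not per length, so levels are compared within a gene. The fit was tested on simulated data.

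Left and right libraries of an embryo are paired by the labels. Their residuals correlated by 0.08 to 0.83 (median 0.58) over 2000 genes.

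The genes used to form the clusters were rebuilt from wild types by the study's stated procedure. The genes named are those that the study names for its transcriptomics, calls of the main test, up to 12 genes in each direction by log2 fold change among protein-coding genes with one direction in 6 embryos, 200 counts and a DESeq2 adjusted p under 0.05, and up to 4 members of each list with one direction. The members and lists were chosen with earlier results of these data known. Some results are not reported here.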

Additional observations from a re-analysis of the deposited data

Results flagged for a closer look

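A single embryo stood far from the other 5 in 3 genes: *Lefty2* in 15_5, with a log2 ratio of right over left of -5.18, *Oat*, an ornithine aminotransferase, in 32_3 (0.33), and *Gcnt1*, a glycosyltransferase, in 3_7 (-0.41). *Oat* and *Gcnt1* were of the rebuilt list of genes used to form the clusters. Chance alone sets about 1 in 20 such groups apart.

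In other genes every heterotaxy mutant had one side and every embryo of another group the opposite side, and these differences were not tested. Against mutants with inverted looping, the mean ratio of the heterotaxy mutants differed by -6.06 in *Lefty2*, -3.93 in *Gm43697*, -2.33 in *Dcaf12l1*, -2 in *Gm35533*, -1.52 in *Pnliprp1*, -1.06 in *Osr1* and -0.99 in *Lpl*. In *Igfbpl1* it differed by 0.82 and in *D030025E07Rik* by 1.22. Against wild types it differed by 2.38 in *Vgll3* and 1.07 in *Hand1*, and against the other rightward mutants by 1.68 in *Hand1*, 1.02 in *Colec10* and 0.81 in *Msx2*. *Gm43697*, *Dcaf12l1*, *Gm35533*, *Igfbpl1* and *D030025E07Rik* were among the genes used to form the clusters. Within the cluster, *Scn3a*, a sodium channel and also 1 of the genes used to form the clusters, was left-sided in the 4 males and right-sided in the 2 females. In the males 15_5 and 32_3 the sides were next to equal, at a ratio of -0.05 in each. The difference of -0.75 between the sexes was not tested.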

How the results depend on the processing

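The number of genes called between right and left, 1 in the main test, was 88 with DESeq2 (33 left, 55 right), 4 without a filter on low counts (3 left, among them *Rerg* and *Mfap4*, and *Vgll3* right), 0 with a robust prior (1348 at an unadjusted p under 0.05 by edgeR), 0 in males alone (1095) and 6, all left, with all 11 mutants with rightward looping. It stayed at 1 with no replicate block, with all 42 libraries and with newer dispersions. Leaving out 1 embryo gave 0 to 77 calls, with 77 without 15_5 and 0 without 23_3 or 3_7. The cause was not tested. The number of genes with one direction in 6 of 6 embryos, 926, was 904 by library size, 713 with at least 10 counts in every library and 1327 without a filter, and 1472 to 2292 over 5 embryos, a count that fewer embryos raise by construction.

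Of 795 single-gene values under the alternatives, 756 kept direction and side of the threshold and 28 passed it where the main test did not. The 11 that changed sign were of genes near 0 or with mixed sides. *Trabd2b* was at -0.0046 with no replicate block and *Bmp2* at -0.0349 in males alone. With 1 embryo left out, *Trabd2b* ran from -0.0342 to 0.1197, *Ism1* from -0.1899 to 0.0199 (without 15_5), *Bmp2* from -0.1072 to 0.0914 and *Gal* from -0.5856 to 0.1354. At totals of 37517697 counts or more, *Nodal*, *Aldh1a1* and *Hoxc8* still had few counts, which limits the precision of their ratios.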
